A study of Mus musculus with 6 samples.

Results

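The cells described here are mouse T helper 9 (Th9) cells in culture that carried transcripts of Il4, the gene of the cytokine interleukin-4 (IL-4). A cell was taken as Il4-positive when its deposited Il4 value was at least 2 and it lay in the authors' clusters 0 to 5. This gave 219 cells of 27258 in the series (27234 in these clusters), against 26578 cells of the same clusters with an Il4 value of 0, called Il4-zero cells below. The cells were chosen on their Il4 value, so every Il4 level below is a description without a test, and Il4 was left out of all gene comparisons. The 437 cells with an Il4 value of 1 lay just outside the limit and the 87 cells with a value of 2 just inside it.

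All cells came from cultures of naive CD4 T cells isolated from mouse spleen. Polarisation lasted 48 h and used 3 ng/ml of human TGF-beta together with IL-4 at 20 ng/ml, with interferon-gamma blocked by 20 µg/ml of antibody, and CD4 cells were enriched on beads before capture. The 3 wild-type libraries are called A, B and C, and the 3 libraries from Cblb-/- mice, deficient in CBL-B, a ubiquitin ligase that restrains T cell activation, are called D, E and F. Both genotypes received the same cytokines, so recombinant IL-4 protein was present in every culture and the transcripts described here are those of the cells' own gene. The design text gives 3 per genotype, without saying whether each library was a separate animal and culture. The p-values therefore cover at most the variation among these libraries, and part of it may be technical. For genes, limma also draws each spread toward that of genes at a similar level. A standard error (SE) can thus understate a gene's own spread among libraries.

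IL-4 is the cytokine that defines T helper 2 (Th2) cells, and in a Th9 culture it acts together with TGF-beta to induce Il9, the gene of interleukin-9. The Il4 gene sits in the type 2 cytokine locus beside Il13, Rad50 and Il5, and an element inside Rad50 is known to control the cytokine genes on both sides. After T cell receptor stimulation, NFAT and AP-1 factors act on Il4 together with GATA3, MAF and STAT6, and within a stimulated population usually only some cells transcribe it.

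The 250 bases upstream of the start of Il4, Il13, Il9 and Kif3a are shown because these genes were higher together in the selected cells. The motif searched on both strands was GGAAA, which reads TTTCC on the other strand, the core bound by NFAT and also part of sites for ETS and NF-kB factors, and its matches are in capitals. Sequences are 5′ to 3′ along each gene's own strand, from RefSeq on GRCm38.p6, the assembly of mm10, and all 4 genes were found in its table. The windows lie at chr11:53618666-53618915 (Il4, minus strand), chr11:53634703-53634952 (Il13, minus strand), chr13:56482258-56482507 (Il9, minus strand) and chr11:53567119-53567368 (Kif3a, plus strand).
Il4 upstream window: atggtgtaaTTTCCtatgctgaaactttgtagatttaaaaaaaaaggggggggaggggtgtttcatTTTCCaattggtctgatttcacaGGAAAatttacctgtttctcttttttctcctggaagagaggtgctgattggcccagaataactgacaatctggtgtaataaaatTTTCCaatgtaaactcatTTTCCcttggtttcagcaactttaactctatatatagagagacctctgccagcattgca
Il13 upstream window: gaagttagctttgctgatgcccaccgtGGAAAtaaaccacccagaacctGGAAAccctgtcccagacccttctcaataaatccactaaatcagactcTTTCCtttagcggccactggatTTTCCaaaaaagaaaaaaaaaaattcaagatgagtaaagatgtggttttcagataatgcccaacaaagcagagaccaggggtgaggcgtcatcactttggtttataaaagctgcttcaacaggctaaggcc
Il9 upstream window: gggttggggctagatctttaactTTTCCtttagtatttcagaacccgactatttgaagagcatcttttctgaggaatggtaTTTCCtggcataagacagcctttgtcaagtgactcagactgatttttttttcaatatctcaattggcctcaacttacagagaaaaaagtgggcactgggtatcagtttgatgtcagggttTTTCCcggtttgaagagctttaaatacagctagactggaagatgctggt
Kif3a upstream window: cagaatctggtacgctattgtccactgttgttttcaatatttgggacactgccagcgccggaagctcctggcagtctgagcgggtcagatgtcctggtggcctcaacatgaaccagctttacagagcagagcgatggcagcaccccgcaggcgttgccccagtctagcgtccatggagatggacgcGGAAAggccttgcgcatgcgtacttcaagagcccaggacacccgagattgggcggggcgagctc

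The Il4 window held 5 matches, a number reached by 0.390% of 32851 such windows of all genes. The Il13 window held 4 (reached by 1.59% of windows), the Il9 window 3 (6.39%) and the Kif3a window 1 (55.6%). An upstream window of another annotated Il4 start, at chr11:53617339-53617588, held 0. An AP-1 motif, TGANTCA, occurred in the Il9 window and in 6.75% of all windows, and was not found in those of Il4, Il13 and Kif3a. A GATA motif, GATAA, occurred in the Il13 window and in 22.6% of all windows. These matches describe letters and do not mark sites in use.

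The deposited values are counts corrected by the authors to a common depth per cell. Raw depth per cell lay between 15006 and 193440 unique molecular identifiers (UMIs, the molecules counted by the droplet method), and library totals between 149381789 (D) and 229387950 (F). For comparisons the corrected counts were summed over the cells of a class in a library and expressed as parts per 1000000 of that sum (ppm). Cblb, the targeted gene, was at 32.7, 31.1 and 31.0 ppm in Il4-zero cells of A, B and C and at 18.7, 15.1 and 18.0 ppm in D, E and F. In Il4-positive cells it was at 31.4, 12.9 and 15.1 ppm in A, B and C and at 14.6, 11.04 and 19.7 ppm in D, E and F. Cblb thus separated the genotypes in Il4-zero cells but not in the few Il4-positive cells. Where the deletion lies is not given in the sources used here, and 3′ counts outside it would remain. Of the 6 libraries, 76 cell barcodes occurred in more than 1, and 3 Il4-positive cells had such a barcode, with 0 partners at an Il4 value of 1 or more.

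Il4-positive cells were rare in every library and most frequent in the knockout library D. They made up 0.948% of cells in A (37 cells), 0.465% in B (20 cells) and 0.418% in C (19 cells). They made up 1.99% in D (68 cells), 0.459% in E (26 cells) and 0.907% in F (49 cells). The genotypes overlapped: E lay among the low wild-type libraries and A above F. Wild-type libraries had a mean share of 0.610% ± 0.294 and knockout libraries of 1.12% ± 0.786 (SD, n = 3 each), a difference of 0.508 percentage points (exact permutation test, two-sided, p = 0.5, where 0.1 is the smallest possible). Without D the difference was 0.0727 percentage points. The 95% exact binomial (Clopper-Pearson) intervals were 1.55% to 2.51% for D and 0.300% to 0.672% for E. Intervals and limits here cover counting error only.

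The selected cells varied widely in their Il4 value. The median was 3, 36 cells had a value of 3, 31 had at least 10 and 14 had at least 20. The highest values were 98 in A, 94 in D, 52 in E, 40 in F, 19 in B and 15 in C. The 219 cells held 77.7% of all Il4 counts of clusters 0 to 5, and the 14 highest held 33.0%. Library D alone held 36.5% of the Il4 counts. Over all cells of a library, Il4 was at 2.28, 0.866 and 0.960 ppm in A, B and C and at 5.49, 0.927 and 1.93 ppm in D, E and F, so a population mean of Il4 in these cultures rests on few cells.

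**Figure D1:**
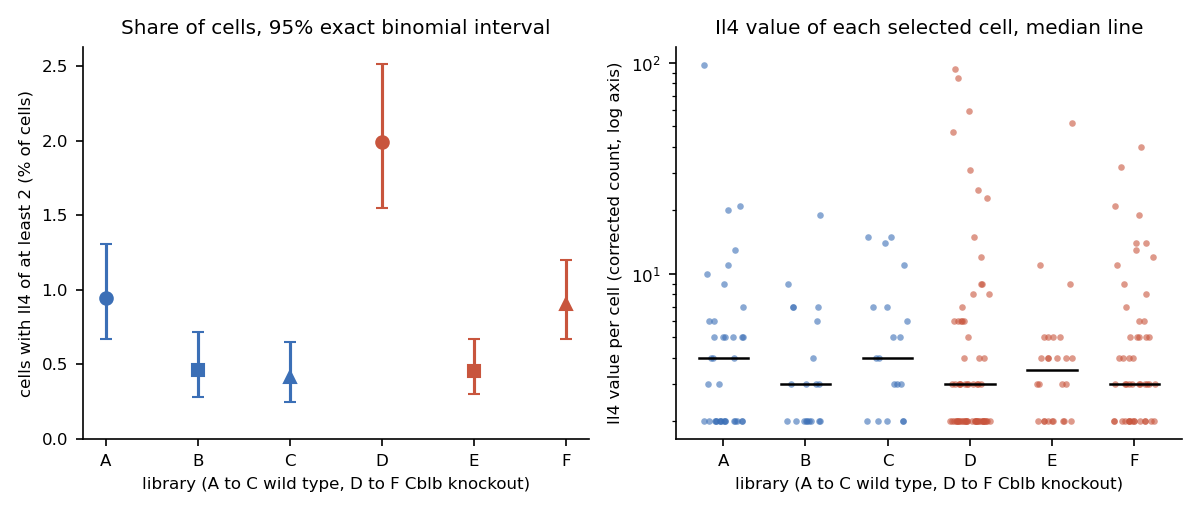
Left, share of cells of clusters 0 to 5 with an Il4 value of at least 2 in each library (percent, bars are 95% exact binomial intervals); right, Il4 value (corrected count, log axis) of each of the 219 selected cells, with the median as a line. Library D stands highest at 1.99%, the other 5 libraries lie between 0.418% and 0.948%, and single cells reach 98 in A and 94 in D.

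Cluster 2 of the authors' clustering held the most Il4-positive cells, 102 of 219, although it was a small part of the culture. In wild-type libraries A, B and C it held 32.4%, 25% and 36.8% of the Il4-positive cells against 5.28%, 3.57% and 5.45% of the Il4-zero cells. In knockout libraries D, E and F it held 61.8%, 50% and 46.9% against 16.2%, 9.54% and 15.4%. The share was higher in 6 of 6 libraries (42.2% ± 13.3 against 9.24% ± 5.46, SD, n = 6), at the smallest p that 6 pairs allow (exact sign-flip test, p = 0.03125, 0.0938 after Benjamini-Hochberg adjustment over 6 clusters). Cluster 0, the largest, went the other way, with 8.76% ± 8.38 of the Il4-positive and 42.4% ± 11.7 of the Il4-zero cells (lower in 6 of 6 libraries, same exact p). Cluster 1 held 33.4% of the former and 33.7% of the latter. None of the 6 clusters passed the adjustment and 2 had an unadjusted exact p below 0.05. Whether Il4 was among the genes used for the clustering is not given in the sources used here.

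Within cluster 2, Il4-positive cells made up 5.24%, 3.01% and 2.63% of cells in A, B and C and 6.83%, 2.28% and 2.64% in D, E and F. Over all libraries the share was 3.76% in cluster 2, 0.684% in cluster 1, 0.218% in cluster 0, 0.999% in cluster 3, 0.318% in cluster 4 and 0.910% in cluster 5. Median raw depth did not follow this order: it was 41007.5 UMIs in cluster 2, 41712.5 in cluster 4 and 38179 in cluster 0. Within each library, however, Il4-positive cells had been sequenced more deeply. Their median raw total was 46976, 53522.5 and 47804 UMIs in A, B and C, against 37777, 38622 and 37471 in Il4-zero cells. In D, E and F it was 44798.5, 43925.5 and 43968 against 39447, 35491 and 39443. The ratio of means was 1.23 (higher in 6 of 6 libraries, exact sign-flip test, p = 0.03125, the smallest possible). No doublet caller could be run on corrected counts, so doublets are untreated.

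**Figure D2:**
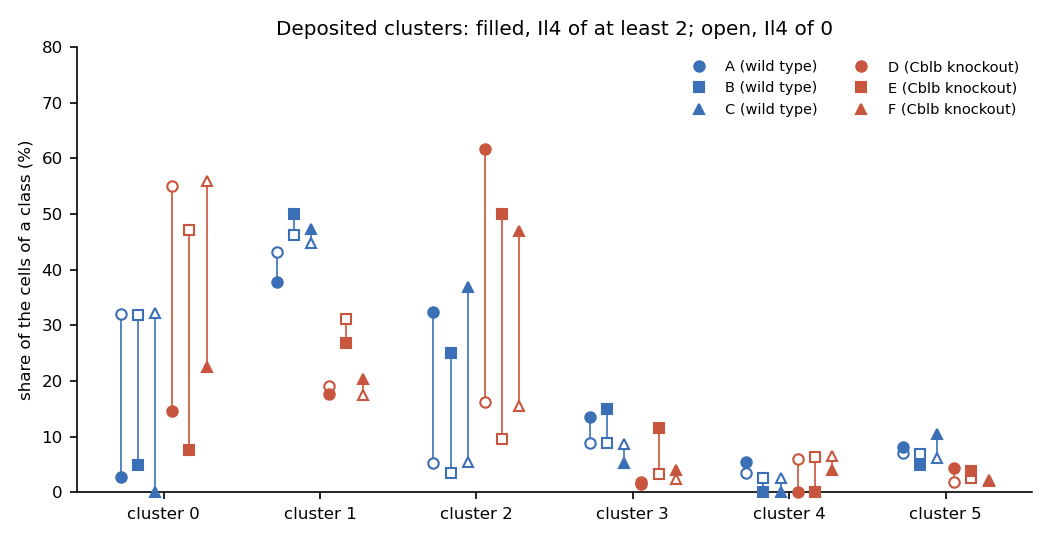
Share of Il4-positive cells (filled) and of Il4-zero cells (open) that lay in each deposited cluster, in percent of the class, 1 pair of points per library. In cluster 2 every filled point (25% to 61.8%) lies above its open partner (3.57% to 16.2%), and in cluster 0 every filled point lies below it.

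Most Il4-positive cells also carried Il9. In A, B and C, 83.8%, 75% and 84.2% of Il4-positive cells had at least 1 Il9 count, against 45.5%, 41.0% and 50.4% of Il4-zero cells. In D, E and F the shares were 94.1%, 88.5% and 91.8% against 72.2%, 63.2% and 86.8%. Il9 was thus found more often in the Il4-positive cells of 6 of 6 libraries (exact sign-flip test, p = 0.03125, the smallest possible). At a value of at least 10, 147 of 219 Il4-positive cells (67.1%) and 18.0% of Il4-zero cells had Il9. The median Il9 value of Il4-positive cells was 16, 9.5 and 24 in A, B and C and 111, 27 and 35 in D, E and F, against 0 to 3 in Il4-zero cells.

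Read the other way, Il4 was found in a minority of high-Il9 cells. Of the cells with 100 or more Il9 counts, 9.91%, 4.48% and 3.81% in A, B and C and 10.2%, 2.40% and 3.19% in D, E and F were Il4-positive. Of the cells without Il9 the shares were 0.286%, 0.199% and 0.134% in A, B and C and 0.438%, 0.145% and 0.566% in D, E and F. The share was higher with high Il9 in each of the 6 libraries. Still, 25 Il4-positive cells had no Il9 count, 5.88% of those in D to 25% of those in B.

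Il13, the neighbour of Il4 and a cytokine that shares receptor components with it, was found in 5 wild-type and 65 knockout Il4-positive cells. In A, B and C, 8.11%, 10.0% and 0% of Il4-positive cells had at least 1 Il13 count (3, 2 and 0 cells), against 0.893%, 0.852% and 1.05% of Il4-zero cells. In D, E and F the shares were 50%, 23.1% and 51.0%, against 33.7%, 8.15% and 27.9%. It was higher in 5 of 6 libraries (exact sign-flip test, p = 0.0625). No cell type without Il13 was at hand to give a background share. At a value of at least 10 the shares were 5.41%, 0% and 0% in A, B and C and 22.1%, 7.69% and 14.3% in D, E and F, against 0.184%, 0.142%, 0.0447%, 8.05%, 1.43% and 4.04% of Il4-zero cells (higher in 4 of 6 libraries). At that value 26 of 219 cells had Il13, 22 had both Il9 and Il13, and 68 had neither. Of the 24 cytokine and lineage genes compared in this way, none passed Benjamini-Hochberg adjustment, and 0.03125 is the smallest p that 6 pairs allow. At an unadjusted exact p below 0.05, 5 were more frequent (Il9, Tnf, Lta, Ccl4 and Gata3) and 3 less frequent (Ccl20, Maf and Cxcr5), and 7 of the 8, all but Gata3, had such a p when Il4-zero cells were weighted to the raw depth of the Il4-positive cells. With weighting to the cluster makeup 4 of them had it (Lta, Ccl4, Ccl20 and Cxcr5), and the difference of Il9 was 9.44 percentage points in place of 26.4, with F lower (91.8% against 92.7%; exact sign-flip test, p = 0.0625). Cxcr5 was at 0 in all Il4-positive cells and in 0.627% to 1.69% of Il4-zero cells, a difference not detectable in 19 to 68 cells per library. With 0 in every library its exact sign-flip p had to be 0.03125, weighted or not. Its place in these counts is therefore no evidence that it was less frequent. Il2, the T cell growth factor, was found in 45.9%, 65.0% and 57.9% of Il4-positive cells of A, B and C against 74.0%, 78.9% and 78.0%, and in 55.9%, 84.6% and 77.6% in D, E and F against 76.2%, 82.8% and 89.9%.

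The levels of Il9, Kif3a and Lta were already above those of Il4-zero cells in the cells with an Il4 value of 1, just outside the limit. Mean Il9 in wild-type libraries was 203 ± 42.2 ppm in Il4-zero cells, 1188 ± 379.9 at a value of 1, 1607 ± 61.9 at 2 to 3 and 2021 ± 1635 at 4 and over (SD, n = 3). In knockout libraries it was 649 ± 185, 2422 ± 244, 3066 ± 2084 and 3631 ± 1057 ppm. Libraries B, E and F did not follow this order. The highest class had 416 ppm against 1546 ppm at 2 to 3 in B and 2819 against 3785 ppm in F, and the class of 2 to 3 had 717 ppm against 2236 ppm at 1 in E. Kif3a, a kinesin motor subunit whose gene borders Il4, was at 6.15, 14.0, 15.7 and 16.5 ppm in the same 4 classes of wild-type libraries and at 9.23, 18.5, 23.6 and 29.5 ppm in knockout libraries. These classes were formed on Il4, hold 7 to 45 cells per library above a value of 1, and were not tested.

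**Figure D3:**
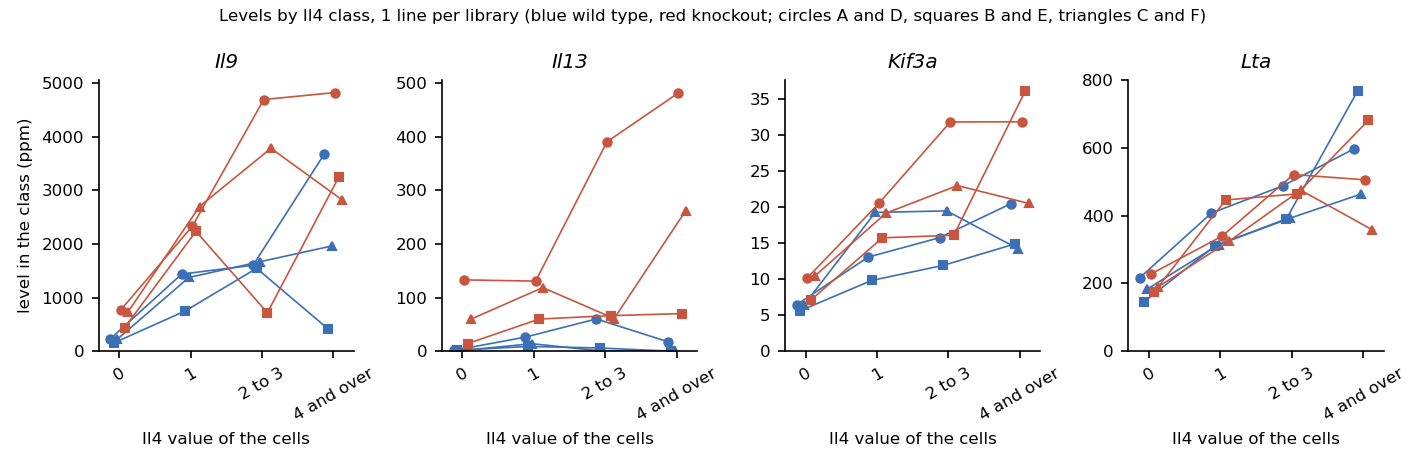
Level of Il9, Il13, Kif3a and Lta (ppm of the class sum) in cells with an Il4 value of 0, 1, 2 to 3, and 4 and over, 1 line per library (blue wild type, red knockout). Kif3a and Lta rise from 0 to 1 in all 6 lines, while Il9 turns down in the highest class in B and in F and Il13 reaches at most 60.1 ppm in a wild-type class.

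Genes were then compared between Il4-positive and Il4-zero cells of the same library, on log2(ppm + 5), a scale that understates the change of low genes. Of 7081 tested genes (mean of at least 10 ppm), 410 (5.79%) were higher and 403 (5.69%) lower in Il4-positive cells on the mean of the genotypes (limma, Benjamini-Hochberg adjusted p below 0.05). The split was 613 higher and 299 lower with means over cells of log2(value + 1), and 315 and 1309 without a filter on low values. A gene could pass the filter through the class in which it was high. In wild-type libraries alone 651 genes (9.19%) were called and in knockout libraries alone 259 (3.66%), and 192 were called in both, all in the same direction. The number in wild type was 413 without library C, and in knockout 141 without D, 114 without E and 140 without F, while the mean of the genotypes gave 537 without E.

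Il9 had the largest difference of the named genes. It was at 2669, 1153 and 1839 ppm in Il4-positive cells of A, B and C, against 229, 154 and 225 ppm in Il4-zero cells. In D, E and F it was at 4739, 1984 and 3334 ppm against 775, 437 and 735 ppm. The classes did not overlap within or across genotypes: the lowest Il4-positive value exceeded the highest Il4-zero value. The log2 difference was 2.72 (SE 0.06, limma adjusted p = 3.99e-20), 3.13 in wild type and 2.32 in knockout. By library it was 3.51, 2.86 and 3.00 in A, B and C and 2.61, 2.17 and 2.17 in D, E and F. These values spread more than the SE conveys, so the p-value overstates the precision from 3 libraries per genotype.

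The next largest rises were those of a transcription factor and a cytokine of the TNF family. Batf3, a basic leucine zipper factor related to BATF, was at 191, 120.2 and 177 ppm in Il4-positive cells of A, B and C against 57.7, 38.4 and 43.2, and at 223, 176 and 212 ppm in D, E and F against 86.8, 84.2 and 101. Its difference was 1.41 (SE 0.06, limma adjusted p = 1.48e-13). Lta, which encodes lymphotoxin-alpha, was at 544, 522 and 434 ppm in A, B and C against 217, 145 and 183, and at 516, 573 and 421 ppm in D, E and F against 227, 175 and 189. Every Il4-positive sum of Lta lay above every Il4-zero sum (difference 1.39, SE 0.07, limma adjusted p = 5.92e-13).

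Il13 rose less evenly. It was at 38.4, 3.88 and 0 ppm in Il4-positive cells of A, B and C against 1.37, 1.76 and 0.964, and at 421, 68.2 and 155 ppm in D, E and F against 133, 14.2 and 60.1. It was higher in 5 of 6 libraries, and C, with no Il13 count in 19 cells, was the exception (difference 1.29, SE 0.22, limma adjusted p = 0.000176). Without a filter on low values Il13 had no call (limma adjusted p = 0.138).

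The other 9 genes complete the 12 largest rises among called genes with the same sign in every library. By that choice each was higher in 6 of 6 libraries, and Il13, with a larger rise than these 9, was left out. Fam46a, a member of the non-canonical poly(A) polymerase family, rose by 1.26 on the log2 scale, Atf3, a stress-induced transcription factor, by 1.10, and Ctla2a, a cathepsin inhibitor-like protein, by 1.09. Il12a, the p35 chain shared by IL-12 and IL-35, rose by 1.06, Cth, the cystathionine gamma-lyase of cysteine synthesis, by 1.02, and Kif3a by 1.02. Slc7a3, a transporter of cationic amino acids, rose by 0.99, the kinase gene Sgk1 by 0.98 and Stra6, the receptor of retinol-binding protein, by 0.95. Their limma adjusted p values lay between 2.88e-10 (Ctla2a) and 3.7e-05 (Sgk1). Kif3a and Sgk1 had Il4-zero means below 10 ppm in both genotypes, so they reached the filter through their level in Il4-positive cells. Batf3 and Atf3 are neighbours on chromosome 1 (191097847 to 191108945, plus strand, and 191170296 to 191218039, minus strand, mm10). Ctla2a has a close paralogue, and the sources used here do not say how reads of the pair were assigned.

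Of the 12 largest falls with the same sign in every library, that of Ms4a4b was the largest. Ms4a4b, a membrane protein of the MS4A family, was at 4.19, 2.58 and 2.74 ppm in Il4-positive cells of A, B and C against 13.3, 15.02 and 14.4, and at 4.21, 1.003 and 6.38 ppm in D, E and F against 20.5, 22.8 and 16.5. No Il4-positive sum reached an Il4-zero sum (difference -1.39, SE 0.14, limma adjusted p = 1.34e-07). Tmem176a and Tmem176b, paired membrane protein genes that overlap on chromosome 6, fell by 1.36 and 1.24 on the log2 scale, Ms4a6b by 1.14, Jaml, an adhesion molecule, by 1.29 and Ramp1, a co-receptor for the neuropeptide CGRP, by 1.27. Bdh2, a short-chain dehydrogenase, fell by 1.04, Filip1l by 1.02, Igfbp7, an insulin-like growth factor binding protein, by 0.99, Phlda3, a target of p53, by 0.97, Dapl1 by 0.84 and Zc3h12d, a member of the Regnase family, by 0.84. By that choice each was lower in 6 of 6 libraries. Their limma adjusted p lay between 7.82e-10 (Dapl1) and 0.000327 (Igfbp7). Ms4a4b, Jaml, Ms4a6b and Filip1l had Il4-positive means below 10 ppm in both genotypes, so they reached the filter through their level in Il4-zero cells. Because the Tmem176 genes overlap on opposite strands, their reads can be told apart only if counting used strand, which is not given in the sources used here.

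**Figure D4:**
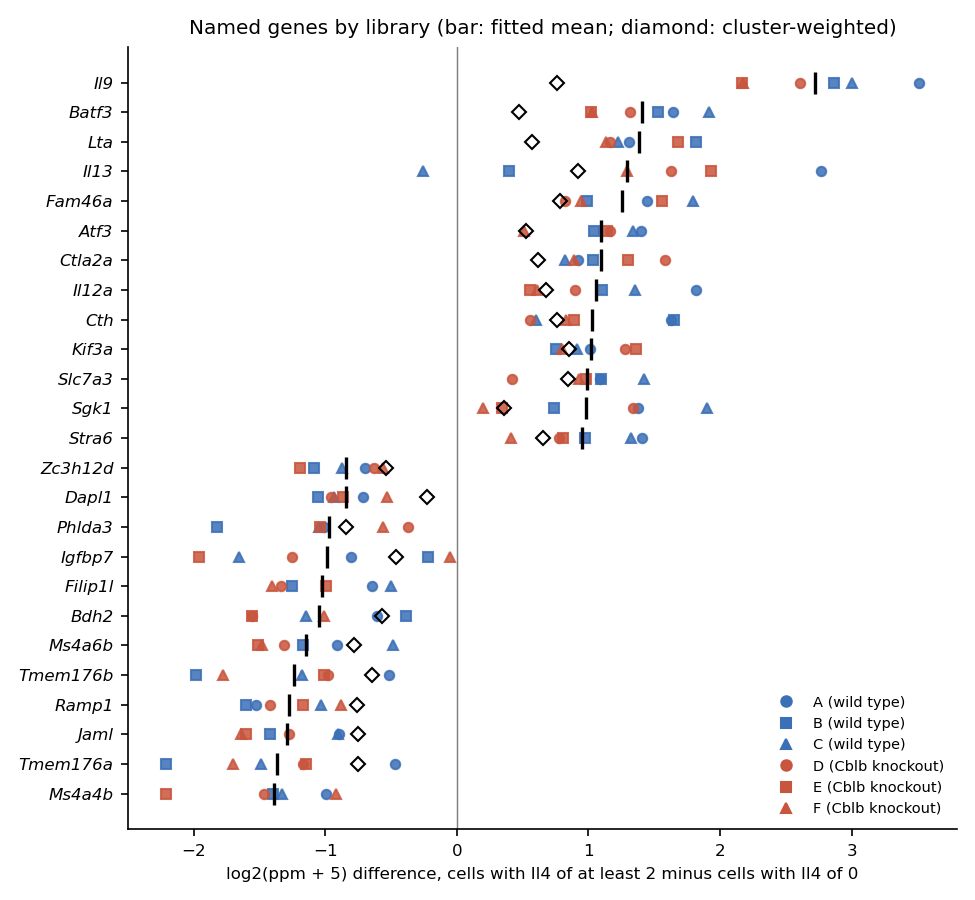
Log2(ppm + 5) difference between Il4-positive and Il4-zero cells of the same library for Il9, Il13 and the other genes of the 12 largest rises and falls, 1 point per library, with the fitted mean as a bar and the fitted mean after weighting Il4-zero cells to the cluster makeup as a diamond (none where the gene missed the filter). Il9 (2.72) falls to 0.76 after weighting and Kif3a (1.02) to 0.85. Of the genes plotted, which leave out Ccl20 and Lgals1, Il13 alone has a library, C, on the other side of 0. The others were chosen for the same sign in every library.

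Of the 7 tested genes within 500 kb of Il4, 4 were higher and 0 lower, among 20 genes of that window in the table. Over all tested genes 5.79% were higher and 5.69% lower. The count depends on the filter. Kif3a, among the 4, had Il4-zero means below 10 ppm and was tested through its level in Il4-positive cells. Of the genes below the filter, Pdlim4 was at -0.50 and Sept8 at 0.28 without a filter (limma adjusted p = 0.0774 and 0.0553). Il4 lies at chromosome 11, 53602982 to 53618669, on the minus strand (mm10, GENCODE M21), and Il13 at 53631324 to 53634702 on the same strand, 12654 bases away. Kif3a, at 53567379 to 53601967 on the plus strand, ends 1014 bases from the end of Il4, so the 3′ ends of the 2 genes face each other. Kif3a was at 18.2, 12.9 and 16.4 ppm in Il4-positive cells of A, B and C against 6.46, 5.62 and 6.39, and at 31.8, 26.1 and 21.8 ppm in D, E and F against 10.2, 7.12 and 10.4. No Il4-positive sum overlapped an Il4-zero sum (difference 1.02, SE 0.11, limma adjusted p = 4.13e-07). The assay counts 3′ ends, and whether any Kif3a counts came from Il4 transcripts or the reverse was not tested.

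Rad50, a DNA repair gene beyond Il13, rose by 0.31 (SE 0.06, limma adjusted p = 0.000784). It was at 109.6, 105 and 109.5 ppm in Il4-positive cells of A, B and C against 83.7, 87.4 and 84.9, and at 164, 113 and 109 ppm in D, E and F against 112, 100.2 and 96.2. Uqcrq, a subunit of respiratory complex III, rose by 0.21 (SE 0.03, limma adjusted p = 7.16e-06). The more distant Hspa4, Zcchc10 and Aff4 had differences of 0.12, 0.15 and 0.12, with limma adjusted p of 0.125, 0.239 and 0.397. Il5, the type 2 cytokine gene beyond Rad50, did not reach the 10 ppm filter: it was at 0, 3.88 and 2.74 ppm in Il4-positive cells of A, B and C and at 7.66, 0 and 5.85 ppm in D, E and F, from 15 cells in all.

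**Figure D5:**
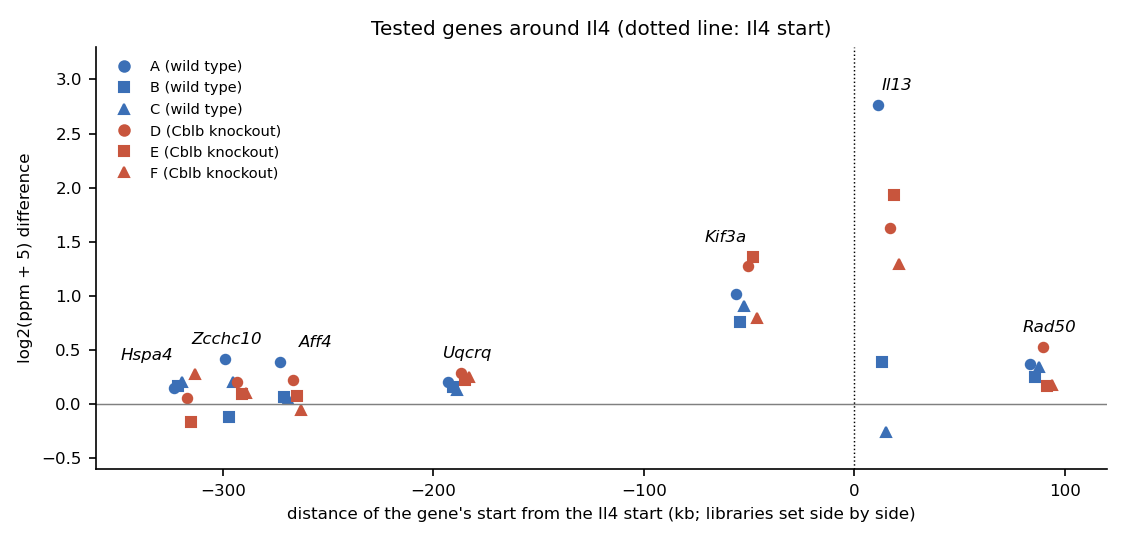
Log2(ppm + 5) difference of the 7 tested genes within 500 kb of Il4, placed by the distance of their start from the Il4 start (kb), 1 point per library. Kif3a and Il13 stand apart from the rest, with Kif3a above 0 in all 6 libraries and Il13 in 5, while Hspa4, Zcchc10 and Aff4 each have points on both sides of 0.

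Factors known to act on Il4 moved in both directions. Of 30 tested genes listed as activating factors 6 rose and 3 fell, where 5.79% of all tested genes rose and 5.69% fell (median difference -0.00, against 0.00 over all 7081 tested genes). Besides Batf3, the risers were Gfi1, a zinc finger repressor induced by IL-4 (0.63), Cebpb (0.61), the AP-1 member Fosl2 (0.48), Gata3, the Th2 master factor (0.47), and Rbpj, the nuclear effector of Notch (0.41). The listed genes that fell were Ikzf1 (-0.27), Mbd2 (-0.22) and Jund (-0.16), of which Mbd2 is a methyl-CpG-binding repressor and not an activator. Gata3 was at 166, 162 and 171 ppm in Il4-positive cells of A, B and C against 111, 108 and 108.5, and at 231, 161 and 182 ppm in D, E and F against 179, 134 and 129.7. It was higher in 6 of 6 libraries within a culture in which nearly all cells had Gata3 (92.5% of Il4-zero cells in B to 96.7% in D; limma adjusted p = 2.35e-07, SE 0.05).

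Other factors of the same list stayed without a call. Maf was at 11.2, 37.5 and 2.74 ppm in A, B and C and at 4.60, 8.03 and 23.4 ppm in D, E and F, higher than in Il4-zero cells in 2 of 6 libraries (difference -0.24, limma adjusted p = 0.511). Stat6, Irf4 and Batf had differences of 0.10, 0.07 and -0.01 (limma adjusted p of 0.394, 0.39 and 0.939). Of 15 tested factors that restrain Il4, Ikzf2 (Helios, 0.73) and Sox4 (0.39) rose, and Irf2 (-0.51), Bach2 (-0.48), Ikzf3 (-0.45) and Runx1 (-0.32) fell. The list median was -0.03, and 5.79% of all tested genes rose and 5.69% fell.

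Among 16 tested genes of IL-4 receptor and STAT6 signalling, 3 rose, Gfi1, Gata3 and Xbp1 (0.36), and 1 fell, Il2rg, the common gamma chain (-0.18). Il4ra itself was at 46.1, 47.8 and 39.7 ppm in Il4-positive cells of A, B and C against 50.0014, 52.9 and 54.4 (all libraries, difference -0.11, limma adjusted p = 0.426). Of 16 Th9 factors 3 rose (Batf3, Irf8 and Rbpj) and 2 fell (Smad2 and Ikzf1), with a median of 0.03. Of 10 further Th2 genes 2 rose and 2 fell, with a median of -0.02. The counts of these lists and of those below stand beside 5.79% of all tested genes higher and 5.69% lower.

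Of 16 other tested cytokine and chemokine genes 5 rose and 2 fell, beside 5.79% and 5.69% of all tested genes. Ccl4, an inflammatory chemokine, rose by 0.90 (SE 0.08, limma adjusted p = 2.88e-08) and was at 246, 231 and 278 ppm in A, B and C against 123, 122 and 110.1, and at 75.1, 193 and 119 ppm in D, E and F against 61.3, 80.5 and 70.1. Ccl3 rose by 0.66 but was higher in 4 of 6 libraries only, and was not called without library E (0.48, limma adjusted p = 0.0556). Tnfsf8, the CD30 ligand, rose by 0.41, and Ltb, the partner chain of lymphotoxin-alpha, by 0.29. Il2 fell by 0.68 (SE 0.07, limma adjusted p = 1.13e-07; -0.99 in wild type and -0.37 in knockout) and was lower in 6 of 6 libraries.

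Ccl20, a chemokine for CCR6, fell by 1.70, but not in every library. It was at 39.8, 1.29 and 1.37 ppm in Il4-positive cells of A, B and C against 33.2, 24.98 and 27.0, and at 8.04, 3.01 and 58.0 ppm in D, E and F against 59.3, 67.5 and 77.4. Library A was higher and F close to its Il4-zero cells, while the other 4 were low (limma adjusted p = 7.41e-05). In knockout libraries alone the difference was -1.96 (limma adjusted p = 0.00222), and -1.34 with no call without library E (limma adjusted p = 0.236).

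Genes of amino acid supply controlled by the stress factor ATF4 rose almost as a whole. Of 23 tested genes 22 were higher and 0 lower, beside 5.79% and 5.69% of all tested genes. The median difference was 0.42 against 0.00 over all tested genes. Asns, the asparagine synthetase, was at 145, 147 and 99.9 ppm in A, B and C against 89.4, 83.0 and 51.0, and at 275, 254 and 235 ppm in D, E and F against 198.8, 163 and 119.6 (difference 0.73, SE 0.06, limma adjusted p = 5.05e-09). Trib3 (0.94), Sesn2 (0.72), Ddit3 (0.69) and Atf4 (0.44) rose too, as did the serine synthesis genes Psat1 (0.38) and Phgdh (0.22). Wars, a tryptophan-tRNA ligase, was the gene without a call (0.03, limma adjusted p = 0.883). Of 24 genes in the list 1 did not reach the filter.

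Hypoxia and glycolysis genes rose in part: 11 of 28 were higher and 1 lower, with a median of 0.12. Examples are Vegfa, the endothelial growth factor (0.73), the hexokinase gene Hk2 (0.60) and the oxygen sensor Egln3 (0.48). Of 32 tested immediate early genes of T cell receptor signalling 10 rose and 4 fell, beside 5.79% and 5.69% of all tested genes, with a median near that of all genes (0.04 against 0.00). The risers included Nr4a3 (0.66), the phosphatase gene Dusp2 (0.55), Nr4a1 (0.38) and Egr3 (0.35). Nr4a3 was at 118, 89.2 and 93.0 ppm in A, B and C against 55.9, 60.2 and 55.9, and its lowest Il4-positive sum in any library (73.3 ppm) lay above the highest Il4-zero sum (69.6 ppm), while Myc did not differ detectably (0.00, limma adjusted p = 0.982). Of 17 IL-2 and STAT5 response genes 5 rose, led by Socs2 (0.68) and Il2ra, the high-affinity IL-2 receptor chain (0.52), and 1 fell, Cd81 (-0.29). Of 35 S phase genes 2 rose and 2 fell, and of 38 G2 and M genes 3 rose and 0 fell, shares near those over all tested genes. Within cluster 2 the median of the G2 and M genes was 0.18.

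Of 11 T cell identity genes 0 rose and 8 fell, beside 5.69% of all tested genes lower, with a median of -0.16. With Il4-zero cells weighted to the cluster makeup 1 of the 11 fell, with a median of -0.08. Cd3e was at 120.1, 138 and 127 ppm in A, B and C against 177, 179 and 179.7, and at 109.9, 112 and 108 ppm in D, E and F against 139.9, 154 and 142, without overlap within either genotype (difference -0.42, SE 0.05, limma adjusted p = 1.68e-06). Cd4 did not pass (-0.16, limma adjusted p = 0.106). Of 15 naive and quiescence genes 6 fell and 1 rose (median -0.22), among them the homing receptor gene Ccr7 (-0.61) and Foxp1 (-0.42). Of 8 Th17 genes 5 fell, including Ccr6 (-0.82), of 11 Tfh genes 4 fell and Sh2d1a, the adaptor SAP, rose (0.46), and of 5 Th1 genes 2 fell. Of 9 Treg genes 4 rose, including Il2ra and Ikzf2, and Capg fell (-0.46). Of 18 costimulation genes 2 rose and 5 fell, and of 6 inhibitory receptor genes 4 fell. Several genes are in more than 1 list.

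Markers of other cell types, some of which can make IL-4, were compared by their summed level. The defining mast cell and basophil genes Cpa3, Mcpt8, Fcer1a, Ms4a2, Kit and Gata2 were at 0 in all 219 cells, and 11 of 13 measured genes of that list were at 0 in every Il4-positive sum. Cluster 6, where these 6 genes were found, was left out by the rule. They were found in 0% (Fcer1a) to 0.226% (Kit) of Il4-zero cells. Zeros in 219 cells were therefore likely beforehand and do not separate the classes. The summed level of all 13 measured mast cell and basophil genes was 0.532 to 2.58 ppm in Il4-positive and 0.922 to 1.38 ppm in Il4-zero cells. NKT cell markers summed to 129 to 200.4 ppm against 165 to 206 ppm, with Klrb1c, Klrd1 and Klrk1 at 0 in Il4-positive cells and 1 of 2 tested genes lower. Zbtb16, the NKT cell factor PLZF, was found in 3 Il4-positive cells, at 0.383 ppm in D and 2.13 ppm in F against 0 and 0.0199 ppm in Il4-zero cells, and at 0 in Il4-positive cells of the other libraries. The range was 0 to 7.75 against 0.912 to 2.66 ppm for gamma delta T cell markers, 4.01 to 13.8 against 5.80 to 11.8 for CD8 T cell markers and 29.5 to 57.5 against 30.4 to 56.0 for NK cell and ILC markers. It was 102 to 187 against 99.6 to 162 ppm for B cell markers, with Ms4a1 and Pax5 at 0 but Cd74 higher by the test, and 56.1 to 100.4 against 84.6 to 170.4 for myeloid markers, with Csf1r, Itgax, Tyrobp and Cd14 at 0 and Cst3 lower by the test. The NKT cell, B cell and myeloid genes named as at 0 were at most at 0.313 ppm (Klrk1 in F) in Il4-zero cells. Their zeros do not separate the classes either. Cd3e was found in 97.7% of the Il4-positive cells.

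Since cluster 2 and high Il9 went with Il4, the comparison was repeated with Il4-zero cells weighted to the same makeup. Weighted to the cluster makeup of the Il4-positive cells of each library, 315 of 7069 genes (4.46%) were called, 303 of them among the 813 above with the same sign. Il9 fell from 2.72 to 0.76, Il2 moved from -0.68 to -0.06 (limma adjusted p = 0.668), Batf3 from 1.41 to 0.47 and Lta from 1.39 to 0.57, whereas Kif3a was at 0.85 and Gata3 at 0.37. Of the ATF4 list 21 of 23 genes were higher. Among the 24 genes of the largest rises and falls, Sgk1 (0.36, limma adjusted p = 0.132) and Igfbp7 (-0.46, limma adjusted p = 0.11) had no call, and Ms4a4b and Filip1l did not reach the filter. Weighted to the Il9 level, a choice made after the data were seen, 228 of 7078 genes (3.22%) were called, 215 of them shared. Il9 itself was then at 0.12, by construction, Batf3 at 0.27, Lta at 0.40, Kif3a at 0.79, Slc7a3 at 0.80, Fam46a at 0.69 and Il13 at 0.93, and 19 of 23 ATF4 genes were higher. Weighted to raw depth, 727 genes were called, 640 of them shared, and Il9 was at 2.54.

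Within cluster 2 alone, 10 of 7069 genes (0.141%) were called. Higher were Lgals3, a galectin (1.24; 0.10 over all clusters, limma adjusted p = 0.64), Slc7a3 (1.05), Il9 (0.66), Cenpe (0.58), Ctla2a (0.52), Asns (0.52), Ube2c (0.42) and Arl6ip1 (0.41), and lower Akr1b3 (-0.53) and Dynlrb1 (-0.40). Kif3a (0.63), Il13 (0.59), Lta (0.29) and Batf3 (0.09) had no call there (limma adjusted p = 0.291, 0.743, 0.325 and 0.774). Within cluster 1 alone, which was chosen after the data were seen, 86 of 7024 genes (1.22%) were called, among them Il13 (1.11), Fam46a (1.001), Stra6 (0.9996), Kif3a (0.98), Il9 (0.97), Lta (0.83) and Batf3 (0.73) higher and Bdh2 (-1.26), Ms4a6b (-1.15), Phlda3 (-1.10), Ramp1 (-0.98), Ccr7 (-0.94) and Il2 (-0.70) lower.

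The difference between Il4-positive and Il4-zero cells itself differed between genotypes for 4 of 7081 genes (0.0565%; limma interaction, adjusted p below 0.05), with 526 genes at an unadjusted p below 0.05. For Il9 the rise was smaller in knockout by 0.81 on the log2 scale (SE 0.11, limma adjusted p = 0.00256), where Il4-zero cells started from a higher level. The lowest wild-type difference was 2.86 (B) and the highest knockout difference 2.61 (D), and this SE too is drawn toward genes at a similar level. Lgals1, a galectin, was at 742, 618 and 731 ppm in A, B and C against 608, 505 and 528, and at 1098, 965 and 1412 ppm in D, E and F against 1244, 1000.1 and 1341. It rose in wild type (0.35) and had a difference of -0.05 in knockout (limma adjusted p = 0.715), with a genotype difference of -0.40 (SE 0.06, limma adjusted p = 0.00842). The other 2 genes were mitochondrial, mt-Nd1 (-0.17) and mt-Co1 (-0.15). The count was 0 without library E (397 at an unadjusted p below 0.05), 1 without D, 2 without F, 7 without C, 8 without A and 11 without B.

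Between knockout and wild-type Il4-positive cells, 149 of 7081 genes (2.1%) differed, 97 higher and 52 lower in knockout (115 and 38 with upper-quartile scaling), against 1804 genes between the Il4-zero cells of the same libraries (729 without A, 742 without B, 630 without C and 2598 without E). Il13 was 3.78 higher on the log2 scale (SE 0.56, limma adjusted p = 0.000817), Csf2, the gene of GM-CSF, 1.99, Il1a 1.36, Atf5 1.34, Il2 1.201 and the STAT inhibitor Socs1 1.12. Lower in knockout were Ccl4 (-1.03), Irf8 (-1.004) and Nrp1, a co-receptor of semaphorins (-1.06). Il9 differed by 0.82 without a call (limma adjusted p = 0.0853), Lta by 0.00 and Gata3 by 0.18 (limma adjusted p = 0.99 and 0.533). Between the Il4-zero cells Il13 was 3.13 higher in knockout and Il9 1.63 higher (limma adjusted p = 0.0102 and 0.00384). Of the genes named in this paragraph, only Il9 had a called genotype difference in the Il4 effect. The others are not shown to be particular to Il4-positive cells. The count of 149 was 59 without library F, 62 without D, 78 without B and 87 without C, from 19 to 68 Il4-positive cells per library.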

How the data were processed

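Droplet single-cell RNA-seq (10x 3′ v3) of Th9 cultures was analysed in 6 libraries, 3 per genotype. Per the submitters' processing notes, reads were processed with Cell Ranger 3.0.2 and Seurat 3.0.0 on mm10. The authors deposited 1 table of 17369 genes per cell. Per the file headers it also holds each cell's raw count of UMIs, its percent of mitochondrial counts and its cluster. The gene values deposited by the authors are whole numbers that give depth-corrected counts, not raw ones, so they were treated as a score and no count model was used. Raw counts per gene were not used here, so cells were not thinned to a fixed depth and no doublet caller was run. The table names libraries by index and genotype, so the genotype was used and no library was matched to a single sample.

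Values were summed per library and class (Il4 of at least 2, or 0, in clusters 0 to 5) and scaled to ppm of the sum. Tests used log2(ppm + 5) and the genes whose mean reached 10 ppm, with limma 3.58.1 (R 4.3.3), with trend, library as a fixed term and a class effect per genotype, over all 7081 genes, with Benjamini-Hochberg adjustment at 0.05. Shares were compared by exact sign-flip tests over 6 libraries or exact permutation tests of 3 against 3, all two-sided (Python 3.11.15, scipy 1.17.1). Member cells, lists and tests were chosen with earlier results of these data known. Named genes are Il9 and Il13, the 12 largest rises and falls among called genes with the same sign in every library, the 5 largest per genotype and for the genotype difference, and list members by size of change. That rule leaves out ribosomal and mitochondrial genes, those on Y, receptor segments and genes without a proper name, and the mitochondrial genes of the genotype difference and the genes of the single clusters were named after their values were seen. Other settings, 24 for the gene tests, covered scaling, pseudocount (1 and 20 ppm), filter (none and 50 ppm), the Il4 limit, reweighted Il4-zero cells, deep cells, per-cell means, cell-number weights and leaving out each library. Restricting to cluster 1 or to cells without Il13, leaving out cells with Il4 above 10, weighting to Il9 and leaving out libraries from cluster 6 were chosen after the data were seen. The test was checked on simulated data with known changes. Coordinates are GENCODE M21 on mm10.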

Additional observations from a re-analysis of the deposited data

Results flagged for a closer look

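The effect of Il4 status differed between genotypes for 4 genes by the limma interaction test. The knockout minus wild-type difference in log2 effect was -0.81 for Il9 and -0.40 for Lgals1. It was -0.17 for mt-Nd1 and -0.15 for mt-Co1, both encoded by the mitochondrial genome. The mitochondrial percent was higher in Il4-positive cells of each wild-type library, as both genes were. It changed in the opposite direction to mt-Nd1 in D (0.098) and to mt-Co1 in E (-0.064). Its median was 5.31%, 4.83% and 5.18% in Il4-positive cells of A, B and C against 4.90%, 4.65% and 4.87% in Il4-zero cells, higher in each wild-type library. In D, E and F it was 4.79%, 4.59% and 4.92% against 5.03%, 4.46% and 4.71%, lower in D and higher in E and F. Its part in the result was not tested. Il9 started from a higher level in knockout Il4-zero cells, and what part that level has in the difference was not tested.

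Cells outside clusters 0 to 5 also carried Il4. Deposited cluster 6 holds 24 cells, of which 5, or 20.8% (95% exact binomial interval 7.13% to 42.2%), had an Il4 value of at least 2. They came from 2 libraries, 3 of 4 cells in C and 2 of 13 in F, and without C the share was 10.0% (2 of 20 cells). In this cluster Gata2 was found in 20 cells, Cpa3, the mast cell carboxypeptidase, in 14, Ms4a2, a chain of the IgE receptor, in 12 and the basophil protease gene Mcpt8 in 11, and Cd3e in 19. These genes other than Cd3e were at 0 in all 219 Il4-positive cells of clusters 0 to 5, a choice of clusters that leaves out cluster 6. The median raw depth of cluster 6 was 24759 UMIs, lower than in the other clusters named here.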

How the results depend on the processing

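No paired analysis was possible because the library columns of the deposited table carry no replicate number that could pair libraries across genotypes; Il4-positive and Il4-zero cells were compared within each library. The 813 genes called on the mean of the genotypes became 1624 without a filter on low values, 1595 with Il4 of at least 1, 462 with Il4 of at least 3, 315 with cluster weighting, 228 with Il9 weighting, 10 within cluster 2 and 86 within cluster 1, and 537 to 780 when 1 library was left out.
The 651 of wild type became 433 with a 50 ppm filter, 1179 and 380 with Il4 of at least 1 and 3, 266 with cluster and 134 with Il9 weighting, 7 and 37 within clusters 2 and 1, 417 in cells without Il13, and 413 to 570 with 1 library left out. The 259 of knockout became 395 without a filter, 664 and 88 with Il4 of at least 1 and 3, 51 with cluster and 34 with Il9 weighting, 535 with weights by cell number, 2 and 4 within clusters 2 and 1, and 114 to 318 with 1 library left out. The 4 genes of the genotype difference became 2 with upper-quartile scaling, 0 without a filter (1148 unadjusted), 30 and 0 with Il4 of at least 1 and 3, 11 with cluster and 8 with depth weighting, 1 without the deepest cells, 1 with per-cell means, 25 with weights by cell number, 0 and 1 within clusters 2 and 1, 7 in cells without Il13, 1 without cells above 10, and 0 to 11 with 1 library left out. The 149 genes between genotypes in Il4-positive cells became 4 without a filter, 605 and 55 with Il4 of at least 1 and 3, 98 without the deepest cells, 15 and 11 within clusters 2 and 1, and 59 to 163 with 1 library left out.
The genotype difference in the share of Il4-positive cells ranged from 0.0727 to 0.837 percentage points with 1 library left out. Reversed were the difference of the share in cluster 5 (-0.523 with Il4 of at least 3), Sgk1 (-0.19 within cluster 1), Lgals3 (-0.019 without library B, in a range of -0.019 to 0.22 with 1 library left out, -0.54 within cluster 1, -0.0077 in cells without Il13) and Il2 (0.20 within cluster 2, 0.000224 with Il9 weighting). Settings with fewer cells or a lower Il4 limit change the number of cells summed; for the other settings the cause was not tested. Of 729 values of 32 named genes under other settings, 668 kept direction and call and 53 lost the call. With 19 to 68 Il4-positive cells per library, genes near 10 ppm rest on few counts.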

Other observations

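Several cytokine genes below the filter were found in few Il4-positive cells. Il24 was at 61.7 ppm in Il4-positive cells of D and 22.3 ppm in F, against 3.94 and 3.85 ppm in Il4-zero cells, and at 0 in B, C and E, from 21 cells in all. Il10 was at 2.79 ppm in A, 6.51 in D and 12.2 in F and at 0 in B, C and E, from 10 cells. Il3 was at 6.28 ppm in A, 0.766 in D, 1.003 in E and 15.4 in F, and at 0 in B and C. Ifng was at 0 in all 6 Il4-positive sums. These sums rest on single cells in most libraries and were not tested.

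Foxp3, the Treg factor, was at 9.78, 11.6 and 4.10 ppm in Il4-positive cells of A, B and C against 15.3, 14.4 and 15.3 ppm, and at 4.21, 2.01 and 0.532 ppm in D, E and F against 5.18, 8.72 and 5.46 ppm. It was lower in each library, from 22 Il4-positive cells with a count.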
